A study of Mus musculus with 20 samples.

Results

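Transcripts of macrophages and of the MHC class II system were measured in 2 populations of stromal cells sorted from gonadal adipose tissue of male mice. The set holds 40 named genes, chosen as markers of macrophages and other myeloid cells and as MHC class II genes, and found by their symbols in the deposited table of 54304 genes. Each symbol matched 1 row, and all 40 passed the filter on low values that defined the 17435 genes tested. Fibro-inflammatory progenitors (FIPs) were sorted as PDGFRβ-positive cells that carried LY6C. Adipogenic precursor cells (APCs) were sorted as PDGFRβ-positive cells without LY6C or CD9. Cells carrying CD45, the surface marker of leukocytes, or CD31, a marker of endothelium, had been gated out of both. Polyadenylated RNA was sequenced from 5 libraries in each of 4 groups: control APCs, Mural-Zfp423 transgenic APCs, control FIPs and Mural-Zfp423 transgenic FIPs. Mice were housed at 30 °C, fed for 1 month on a diet with 60% of calories as fat, and are described as 8 weeks old. Each library pooled RNA of 2 mice and 10 mice were used per genotype, so FIP and APC pools of 1 genotype shared mice, in a pairing that the labels do not give. The sources used here do not give the promoter that drives the transgene, the strain or the alleles of the controls.

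Macrophages are phagocytes that settle in fat early in life or arrive as monocytes from the blood, and they accumulate there in obesity. They depend on the receptor CSF1R and the transcription factor PU.1 (Spi1), clear debris through scavenger and Fc receptors, and make the C1q proteins that start the classical complement pathway. Class II molecules, built from an alpha and a beta chain around the invariant chain CD74, show peptides from engulfed material to helper T cells. Their genes are switched on together by the coactivator CIITA, which binds to a complex that sits on the X and Y boxes of their promoters.

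Levels are deposited log2 CPM, the logarithm of counts scaled to library size (CPM), in which a CPM of 1 or less is listed as 0. The steps between low values gave an estimated depth of 6.61 to 8.5 megareads per library. The sort was visible in the gate genes: the group means of Pdgfrb were 8.94 to 9.44 log2 CPM, and Ly6c1 stood at 7.07 to 7.41 in FIP libraries against 4.88 to 5.83 in APC libraries. Zfp423, the gene the transgene carries, had a level of 5.53 ± 0.04 in FIPs labelled transgenic and 5.47 ± 0.12 in control FIPs (log2 CPM, mean ± SD, n = 5), and of 4.70 ± 0.27 and 4.97 ± 0.17 in the corresponding APCs. No rise of Zfp423 was measured, so the libraries are called labelled transgenic, and each genotype direction rests on the labels. The 5 pools of a group account for the 10 mice of its genotype, so p-values of genotype within a cell type refer to a spread between pools of 2 mice. That spread was estimated from all 4 groups together, with 16 residual degrees of freedom. Libraries of the other cell type, which share mice, therefore entered it as if independent. The average over both cell types takes in each mouse in both populations, so its p-values count libraries that share mice as independent.

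Transcripts typical of leukocytes were present in all 20 libraries despite the CD45 gate. Summed over 39 members, without the apoptotic cell receptor Mertk, they made up a mean of 995 ± 201 CPM (SD, n = 5) in control APCs and 617 ± 118 in APCs labelled transgenic. The sum was 765 ± 171 in control FIPs and 558 ± 137 in FIPs labelled transgenic. In bulk RNA, fewer cells of a type and less RNA per cell cannot be told apart. Single libraries stood apart within their groups. In control APCs replicate 1 was the lowest of the group for 34 of the 40 members, and in control FIPs replicate 1 was the lowest for 35. In the libraries labelled transgenic, replicate 5 was the lowest for 32 members in APCs and for 29 in FIPs. Replicate 1 of the control APCs, at 701 CPM, lay within the range of the APCs labelled transgenic, 442 to 748 CPM, while the other control APC libraries held 872 to 1159 CPM. Among FIPs the sums overlapped too, with 546 to 1008 CPM in controls and 371 to 708 CPM in the libraries labelled transgenic.

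**Figure D1:**
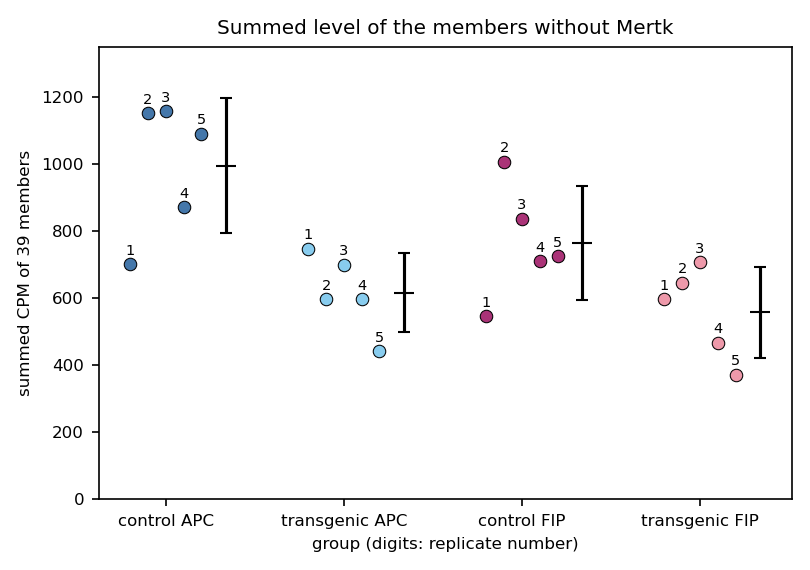
Summed level in CPM of 39 members (all but Mertk) in each library; points are libraries with their replicate number, and bars are the mean ± SD of 5 libraries. The 5 APC libraries labelled transgenic lie between 442 and 748 CPM, and control APC replicate 1, at 701 CPM, is the only control APC library within that range.

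Levels of different genes can be compared only per length. Per kilobase of annotated exon, Lyz2, which encodes the lysozyme of macrophages, and Cd74 stood highest on the mean of all libraries, at 55.6 and 53.6 CPM, followed by H2-Eb1 with 26.5 and C1qa with 23.7. The beta chain gene H2-Ab1 reached 20.4, C1qb 19.8, the lysosomal glycoprotein gene Cd68 18.9 and the protease gene Ctss 17.8. At the other end stood Cx3cr1 with 0.0875, Marco with 0.199, Ms4a7 with 0.371, Msr1 with 0.429 and Fcgr1 with 0.514 CPM per kilobase. Annotated exon length can exceed that of the transcripts made, and for Rgs1, at 6947 bases, it covers the whole gene. Values listed at 0 were taken as 0 CPM. The order of genes is therefore approximate. Cx3cr1, the fractalkine receptor, exceeded 0 in 6 libraries, and Marco, a scavenger receptor, in 5, all of them controls, so Marco passed the filter through the controls alone. Timd4 and Fcgr1 exceeded 0 in 15 libraries each, Aif1 in 16, Ms4a7 in 17 and Msr1 in 18, and the other 33 members in all 20. On the log2 CPM scale, 1 CPM corresponds to fewer than 10 reads, so the values of these 7 low genes rest on few reads.

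**Figure D2:**
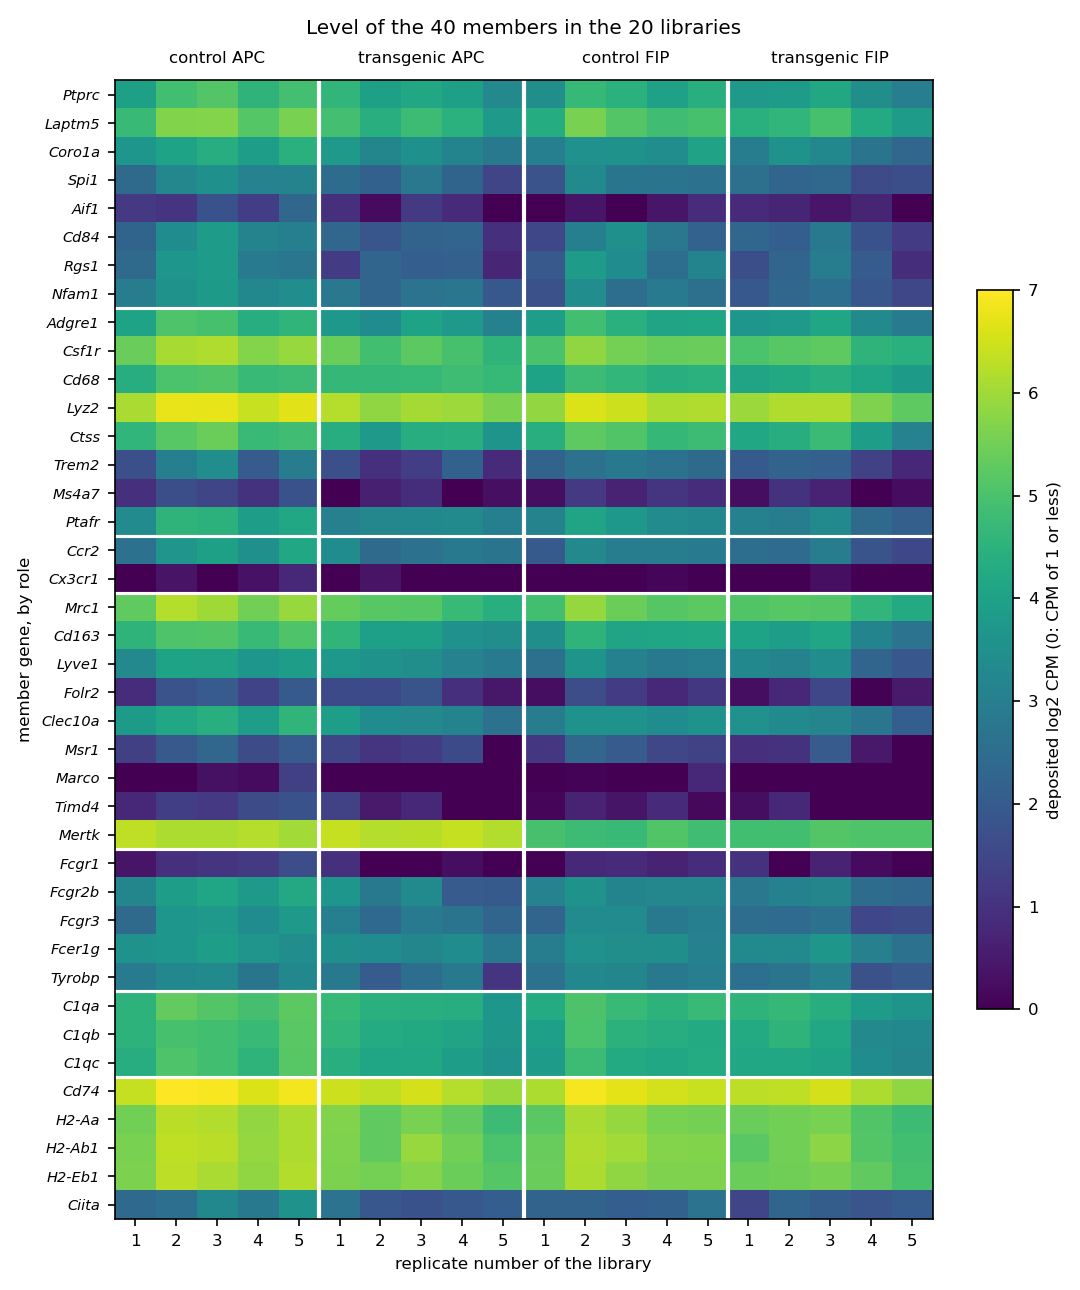
Deposited log2 CPM of the 40 members (rows, by role) in the 20 libraries (columns, by group and replicate). Most rows are low together in replicate 1 of both control groups and in replicate 5 of both groups labelled transgenic, while Mertk follows the cell type, from 6.04 to 6.39 in APCs and from 4.72 to 5.14 in FIPs.

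The genotypes were first compared within APCs. In the libraries labelled transgenic 23 of the 40 members were lower and 0 were higher (limma, Benjamini-Hochberg adjusted p under 0.05), a share of 57.5%, beside 5.91% of all genes called lower. The members' median difference was −0.80 log2 units, against −0.03 over all genes, and 39 members lay below 0. Marco is among the 39, but it was listed at 0 in every library labelled transgenic and could not lie above 0. Over all genes 366 were called higher and 1030 lower, a split that turned to 1376 higher and 823 lower with libraries centred on their medians and to 494 and 574 with quantile normalization. The groups did not overlap for 6 members, Rgs1, Nfam1, Adgre1, Ctss, Ms4a7 and Ptafr, beside 1.42% of all genes without overlap in this direction. By role, the calls were 6 of 8 leukocyte and myeloid genes, 7 of 8 macrophage identity and lysosome genes, 3 of 9 scavenger and resident macrophage genes, 2 of 5 Fc receptor and adaptor genes, 2 of 3 C1q chains, 3 of 5 class II genes and 0 of 2 chemokine receptors.

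These calls rested on single libraries and on the spread shared by the 4 groups. With only the 2 APC groups in the fit, limma called 0 members and 0 genes in all, with the same median of −0.80. Without control APC replicates 2, 3, 4 and 5 in turn, 12, 2, 12 and 0 members passed, and without replicates 2, 3, 4 and 5 of the APCs labelled transgenic 2, 10, 5 and 0 passed. Without replicate 1 of either APC group 31 passed. Over all genes the calls of this comparison ranged from 181 to 2849 in the 20 fits that left out 1 library, so the count moved across the whole table too. The members' median stayed between −0.93 and −0.66 in these fits. None of the 23 calls held under all 29 alternatives, left-out libraries included, although every one of the 23 differences stayed below 0 in each of them.

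**Figure D3:**
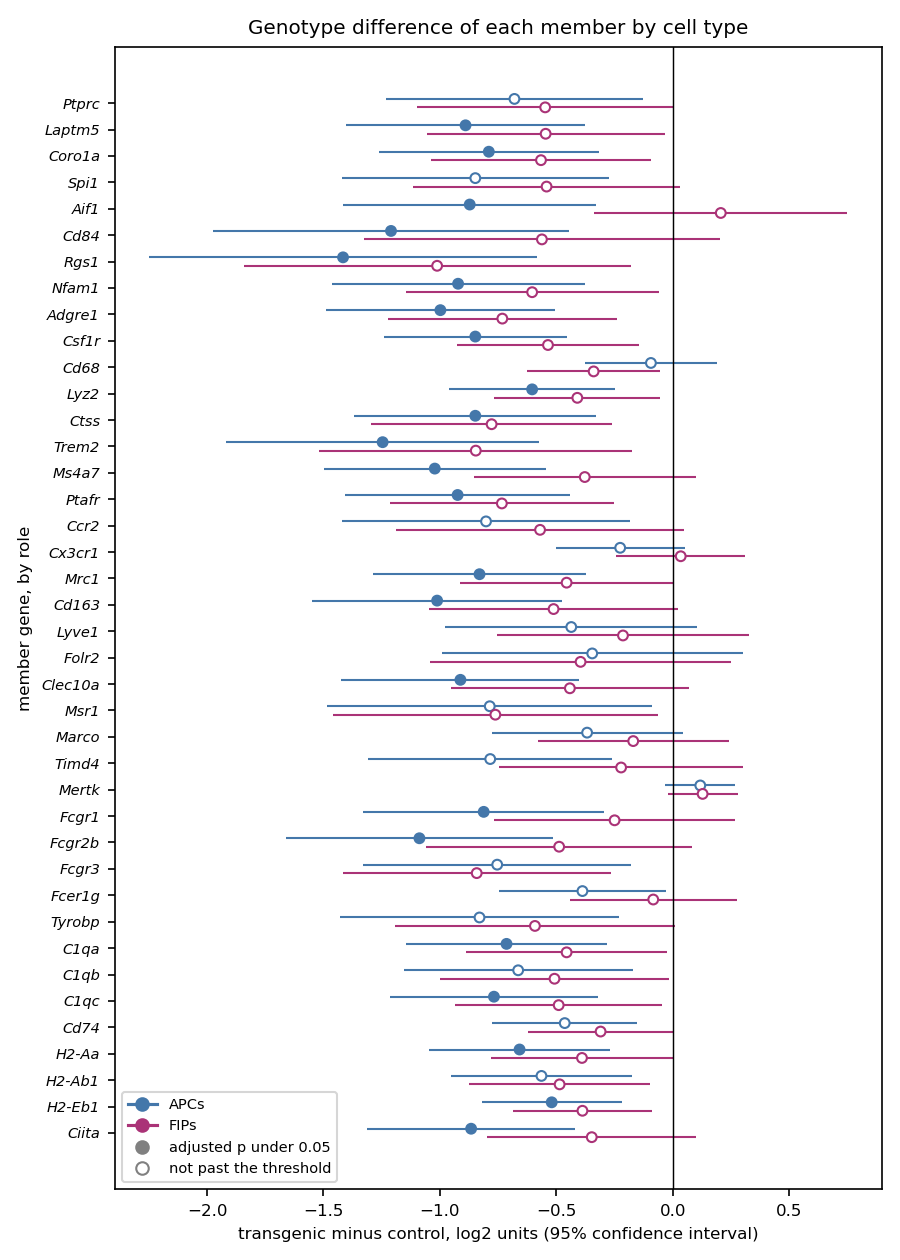
Difference between libraries labelled transgenic and controls for each member, in APCs (blue) and FIPs (purple), in log2 units with 95% confidence intervals from limma; filled points passed an adjusted p of 0.05. Filled points occur only in APCs, 23 of them, and the points to the right of 0 are Mertk in both populations and Aif1 and Cx3cr1 in FIPs.

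Genes of leukocytes in general were the first role examined in APCs. Rgs1, a brake on G-protein signals of chemokine receptors, had the largest difference of the 40 members in this comparison. Its 5 control APC libraries held 2.43, 3.67, 3.88, 2.86 and 2.74 log2 CPM in the order of their replicate numbers, and those labelled transgenic 1.23, 2.29, 2.1, 2.14 and 0.74. All controls lay above all libraries labelled transgenic, and the log2 difference was −1.42 (SE 0.4, limma adjusted p = 0.0383). Ptprc, the gene of CD45 itself, held 3.98, 4.89, 5.12, 4.54 and 4.92 in controls and 4.61, 3.98, 4.19, 3.97 and 3.3 in the libraries labelled transgenic. These groups overlapped, and the difference of −0.68 did not pass (limma adjusted p = 0.109). Nfam1, an activating receptor with an ITAM motif, held 2.93, 3.58, 3.82, 3.28 and 3.42 against 2.81, 2.29, 2.66, 2.74 and 1.92, with no overlap and a difference of −0.92. The signalling receptor gene Cd84 held 2.25, 3.4, 3.85, 3.14 and 3.03 against 2.32, 1.86, 2.24, 2.27 and 0.93, with an overlap through control replicate 1 and a difference of −1.21 (limma adjusted p = 0.0475). Spi1, which encodes PU.1, held 2.43, 3.23, 3.51, 3.09 and 3.13 against 2.48, 2.17, 2.79, 2.26 and 1.45, and its difference of −0.85 did not pass (limma adjusted p = 0.0592). Laptm5, a lysosomal membrane protein of blood cells, differed by −0.89, the actin regulator Coro1a by −0.79 and Aif1, which encodes the macrophage protein IBA1, by −0.87, and all 3 fell.

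Macrophage identity genes were lower as well. Adgre1, which encodes the adhesion receptor used as the standard surface marker of mouse macrophages, held 4.07, 5.06, 4.95, 4.36 and 4.59 in control APCs and 3.74, 3.41, 4.06, 3.75 and 3.08 in APCs labelled transgenic. The lowest control lay just above the highest library labelled transgenic, and the difference was −1.0 (SE 0.24, limma adjusted p = 0.022). For Csf1r, the receptor of the macrophage growth factors CSF1 and IL-34, the values were 5.41, 6.08, 6.17, 5.71 and 5.93 against 5.42, 4.88, 5.24, 4.97 and 4.55. Here replicate 1 of each group met at 5.41 and 5.42, and the difference was −0.85 (SE 0.19, limma adjusted p = 0.0182). Exons of Csf1r share up to 873 bases with Hmgxb3 on the other strand, and the strand setting of the counting is not given, so its level is uncertain. Trem2, a lipid receptor of macrophages in obese fat, held 1.72, 3.02, 3.44, 2.03 and 2.97 against 1.7, 0.95, 1.26, 2.18 and 0.86, a difference of −1.25 (limma adjusted p = 0.0298). Ms4a7 held 0.98, 1.69, 1.46, 1.03 and 1.77 against 0, 0.62, 0.92, 0 and 0.28, with no overlap but at a level of few reads (−1.02). Ptafr, the receptor of platelet-activating factor, held 3.38, 4.55, 4.5, 3.92 and 4.2 against 3.06, 3.25, 3.28, 3.31 and 3.03, a difference of −0.92 with no overlap. Lyz2 held 6.11, 6.76, 6.75, 6.41 and 6.68 against 6.22, 5.84, 6.05, 5.97 and 5.61, overlapping, with a difference of −0.6 (limma adjusted p = 0.0389). Reads of Lyz2 could be split with its near-identical neighbour Lyz1. Ctss, the protease that trims the invariant chain in endosomes, held 4.61, 5.19, 5.43, 4.72 and 4.85 against 4.37, 3.78, 4.37, 4.41 and 3.63, with no overlap and a difference of −0.85.

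Cd68, which encodes a glycoprotein of lysosomes, was the exception in this role. It held 4.35, 5.03, 5.11, 4.72 and 4.8 in control APCs and 4.67, 4.67, 4.7, 4.82 and 4.68 in APCs labelled transgenic, so the second group spanned only 0.15 log2 units and lay inside the range of the first. Its difference was −0.09, with a 95% confidence interval of −0.38 to 0.19 (limma adjusted p = 0.727). In this comparison Cd68 was the only one of the 8 macrophage identity and lysosome genes that was not called.

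Scavenger receptors, Fc receptors and C1q chains gave the following values in APCs. Cd163, the receptor for haptoglobin and hemoglobin, held 4.56, 5.08, 5.1, 4.74 and 5.06 in controls and 4.58, 3.95, 3.97, 3.53 and 3.45 in the libraries labelled transgenic. The ranges overlapped at replicate 1 of each group, and the difference was −1.01 (SE 0.26, limma adjusted p = 0.0284). The mannose receptor gene Mrc1 fell by 0.83 and the lectin gene Clec10a by 0.91. The other scavenger and resident genes did not pass and differed by −0.78 for the phosphatidylserine receptor Timd4, −0.79 for Msr1, −0.44 for the hyaluronan receptor Lyve1, −0.37 for Marco, −0.35 for the folate receptor Folr2 and 0.12 for Mertk. The inhibitory Fc receptor gene Fcgr2b held 3.21, 3.89, 4.13, 3.8 and 4.23 against 3.67, 2.83, 3.32, 2.02 and 1.98, a difference of −1.09 (limma adjusted p = 0.028), and the high-affinity receptor Fcgr1 fell by 0.81 at few reads. Fcgr2b and Fcgr3 are close relatives, so reads could be split between them. The low-affinity receptor Fcgr3 held 2.41, 3.67, 3.75, 3.4 and 3.76 against 3.01, 2.38, 2.86, 2.69 and 2.28. It (−0.75) and the shared signalling chains Tyrobp (−0.83) and Fcer1g (−0.39) did not pass. C1qa held 4.53, 5.33, 5.13, 4.93 and 5.24 against 4.69, 4.45, 4.41, 4.37 and 3.67, a difference of −0.71 (limma adjusted p = 0.0415). C1qc fell by 0.77, while C1qb, at −0.66, did not pass (limma adjusted p = 0.081). Neither chemokine receptor passed, with −0.8 for the monocyte receptor Ccr2 and −0.23 for Cx3cr1.

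The class II chain genes lie close together in the MHC on mouse chromosome 17 (build GRCm38), H2-Ab1 at chr17:34257689-34269419, H2-Aa at chr17:34282744-34287823 and H2-Eb1 at chr17:34305867-34316674. Ciita lies apart from them, on chromosome 16. The promoter windows of H2-Aa (chr17:34287774-34288073, minus strand) and H2-Eb1 (chr17:34305617-34305916, plus strand) are shown. Both genes were called in the genotype comparison within APCs and have a window listed, while Ciita, also called there, has none. The windows shown are RefSeq windows of build GRCm38.p6, from 250 bases before to 50 after the start site, written 5′ to 3′. Capitals mark the Y box core, CCAAT or its reverse complement ATTGG, and the X box core AGCAAC.
H2-Aa: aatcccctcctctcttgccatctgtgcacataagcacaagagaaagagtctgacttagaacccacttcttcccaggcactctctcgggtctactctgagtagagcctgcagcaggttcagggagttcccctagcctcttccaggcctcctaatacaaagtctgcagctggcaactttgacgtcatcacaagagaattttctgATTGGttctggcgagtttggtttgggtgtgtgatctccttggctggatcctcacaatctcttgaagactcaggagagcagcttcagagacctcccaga
H2-Eb1: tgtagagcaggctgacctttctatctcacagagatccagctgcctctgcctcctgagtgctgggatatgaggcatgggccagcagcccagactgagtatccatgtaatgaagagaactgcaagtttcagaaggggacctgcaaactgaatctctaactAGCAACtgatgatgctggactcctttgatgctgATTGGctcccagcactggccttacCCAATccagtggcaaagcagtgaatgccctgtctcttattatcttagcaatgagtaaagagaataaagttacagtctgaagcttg
The H2-Aa window held ATTGG from position −48, and the H2-Eb1 window held AGCAAC from −92, ATTGG from −59 and CCAAT from −35, counted from the start site. Of 32851 promoter windows in the table, 37.4% held CCAAT and 14.8% held AGCAAC on either strand, against 10 and 7 of the 35 windows listed for 28 of the members (28.6% and 20%). Cd74, H2-Ab1 and Ciita have no window listed, so the member windows belong mostly to genes outside class II. For PU.1 the core GAGGAA was searched on both strands. It was found in 17 of the 35 member windows (48.6%) and in 28.3% of all windows. Neither of the windows shown held GAGGAA, and the X and Y box cores in them share no letters. A match is a description of letters only.

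Among class II genes in APCs, Cd74 held 6.38, 7.0, 6.94, 6.63 and 6.87 in controls and 6.47, 6.33, 6.54, 6.22 and 5.94 in the libraries labelled transgenic. The ranges overlapped, and the difference of −0.46 missed the threshold (limma adjusted p = 0.058). H2-Aa held 5.51, 6.27, 6.19, 5.87 and 6.15 against 5.67, 5.3, 5.6, 5.32 and 4.81, lower by a log2 difference of −0.66 (SE 0.19, limma adjusted p = 0.0389). The beta chain gene H2-Ab1 held 5.59, 6.34, 6.27, 5.88 and 6.14 against 5.66, 5.28, 5.93, 5.5 and 5.03, and its difference of −0.56 did not pass (limma adjusted p = 0.064). H2-Eb1, a second beta chain gene, held 5.62, 6.29, 6.11, 5.84 and 6.2 against 5.62, 5.54, 5.73, 5.42 and 5.15, a difference of −0.52 (SE 0.14, limma adjusted p = 0.0366). Control replicate 1 lay inside the range labelled transgenic for all 4 of these genes. Ciita held 2.4, 2.57, 3.28, 2.84 and 3.59 against 2.67, 1.9, 1.77, 1.93 and 2.08, a difference of −0.87 (SE 0.22, limma adjusted p = 0.0273). Ciita shares up to 127 exon bases with Dexi on the other strand. Cd74 and the 3 chain genes together made up 158 to 256 CPM in the APCs labelled transgenic and 226 to 364 CPM in the controls.

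**Figure D4:**
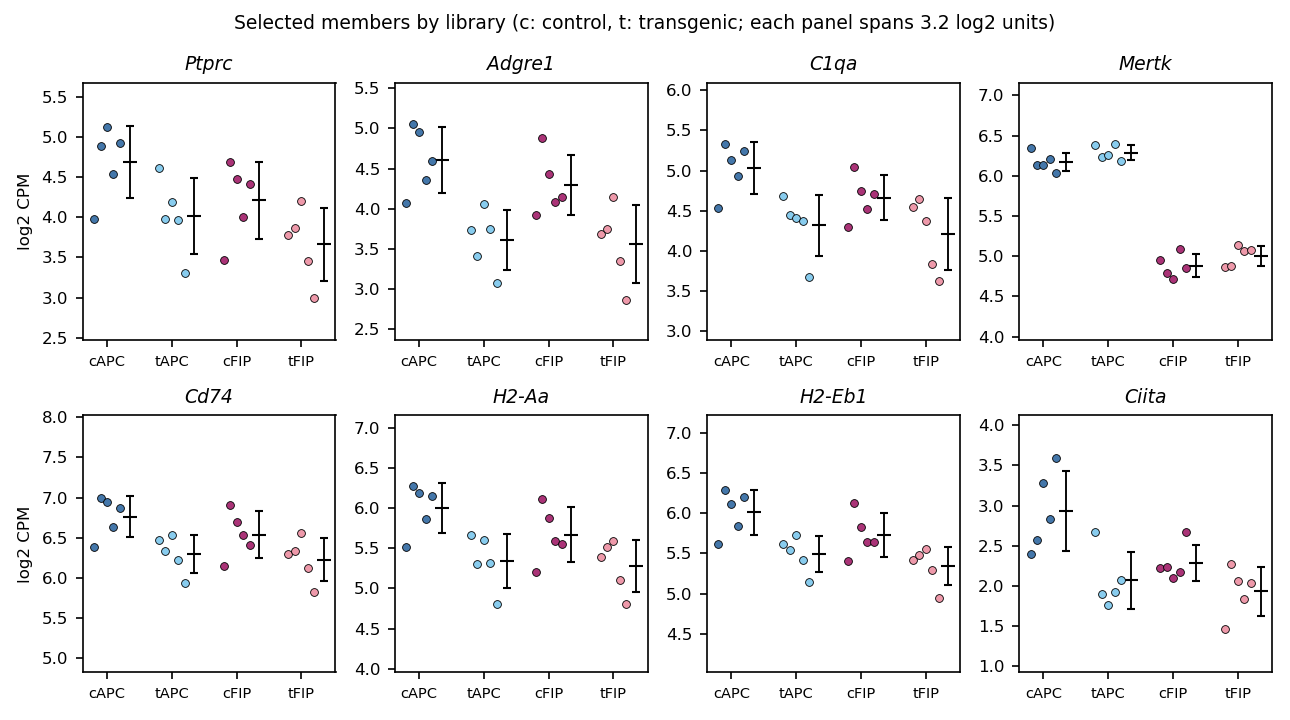
Log2 CPM of 8 members by library; points are libraries in replicate order, bars are mean ± SD of 5, and every panel spans the same height. Ptprc, Adgre1, C1qa and the class II genes overlap or nearly meet between genotypes, and Mertk separates APCs from FIPs.

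Transcripts of other cell types also differed in APCs. All 6 erythroid genes were lower in the libraries labelled transgenic, with a median difference of −0.94 and summed levels of 454 to 1043 CPM against 805 to 1544 in controls. Of 8 mesothelial markers 1 was lower (median −0.66; 171 to 236 CPM against 234 to 259), and of 14 endothelial markers 1 was lower and 1 higher (median −0.24; 834 to 1029 CPM against 908 to 1132). In every group the mesothelial sum came largely from 1 marker that was not called between genotypes, so it says little of the others. Of markers of other leukocytes, 2 of 5 neutrophil and mast cell markers and 1 of 8 T and NK cell markers were lower. Of dendritic cell markers 1 of 9 was lower and of B cell markers 0 of 8, beside 5.91% of all genes called lower. In that order of lists the medians were −0.70, −0.40, −0.19 and −0.43, and 5, 7, 9 and 6 markers lay below 0. None of the erythroid, mesothelial or endothelial markers was listed at 0 in all libraries. The gate genes Ly6c1 (−0.53), Ly6c2 (−0.53) and Cd9 (−0.65) were lower in these APCs too, while Pdgfrb held 9.24 to 9.51 log2 CPM against 9.25 to 9.48. Their part in the members' differences was not tested.

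Within FIPs no member was called between genotypes. Of the 40 members 37 lay below 0 in the FIPs labelled transgenic, with a median of −0.49 against 0.01 over all genes. Marco, among the 37, could not lie above 0 here either. Limma called 0 members, beside 0.373% of all genes called either way, while 19 members had an unadjusted p under 0.05, all lower, beside 10.6% of all genes. Over all genes 42 were called higher and 23 lower, a split of 27 and 25 with centred libraries and of 52 and 45 with quantile normalization. The groups overlapped for all 40 members, while 0.694% of all genes lay lower without overlap. The smallest p-values belonged to Ptafr, Ctss, Adgre1 and Fcgr3. Ptafr held 3.14, 4.08, 3.73, 3.37 and 3.26 log2 CPM in controls and 3.08, 2.97, 3.31, 2.42 and 2.13 in the libraries labelled transgenic, a difference of −0.73 (limma adjusted p = 0.201). Ctss held 4.38, 5.26, 5.1, 4.65 and 4.81 against 4.2, 4.35, 4.77, 3.89 and 3.1, a difference of −0.78 (limma adjusted p = 0.212). Control replicate 1 lay among the libraries labelled transgenic for both genes. Adgre1 held 3.92, 4.88, 4.43, 4.09 and 4.15 against 3.69, 3.75, 4.15, 3.35 and 2.87 (−0.73, limma adjusted p = 0.215), and Fcgr3 held 2.29, 3.38, 3.38, 2.84 and 3.01 against 2.5, 2.44, 2.62, 1.49 and 1.64 (−0.84, limma adjusted p = 0.225).

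The reference members in FIPs overlapped between genotypes too. Ptprc held 3.47, 4.69, 4.47, 4.0 and 4.41 in controls and 3.78, 3.86, 4.2, 3.46 and 3.0 in the libraries labelled transgenic (−0.55). Csf1r held 4.99, 5.83, 5.55, 5.36 and 5.41 against 5.03, 5.18, 5.26, 4.56 and 4.43 (−0.54). C1qa held 4.3, 5.04, 4.75, 4.52 and 4.71 against 4.55, 4.65, 4.37, 3.84 and 3.63 (−0.46). In each of these genes control replicate 1 was the lowest control and replicate 5 labelled transgenic the lowest library of its group. The lysozyme gene Lyz2 held 5.86, 6.6, 6.47, 6.15 and 6.16 against 5.95, 6.17, 6.16, 5.66 and 5.25 (−0.41). For Cd68 the values were 4.07, 4.81, 4.64, 4.42 and 4.46 against 4.1, 4.26, 4.4, 4.13 and 3.81 (−0.34). Spi1 held 1.8, 3.34, 2.73, 2.69 and 2.62 against 2.58, 2.27, 2.33, 1.62 and 1.67 (−0.54). PU.1 is the factor that many of the other members need for their expression, and its gene did not pass in FIPs or in APCs alone, but was lower averaged over both (−0.69, limma adjusted p = 0.0429). That averaged call was lost in 13 of the 20 fits that left out 1 library, with limma adjusted p-values of 0.017 to 0.0846.

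In the class II role, Cd74 held 6.15, 6.91, 6.7, 6.53 and 6.41 in control FIPs and 6.3, 6.33, 6.56, 6.13 and 5.83 in those labelled transgenic. H2-Aa held 5.21, 6.11, 5.88, 5.59 and 5.55 against 5.39, 5.51, 5.59, 5.1 and 4.8, and H2-Ab1 held 5.36, 6.17, 6.02, 5.71 and 5.67 against 5.2, 5.5, 5.78, 5.13 and 4.89. Control replicate 2 was the highest of all FIP libraries for each of these 3 genes. For H2-Eb1 the values were 5.41, 6.13, 5.83, 5.64 and 5.64 against 5.42, 5.48, 5.56, 5.3 and 4.95. Ciita held 2.23, 2.24, 2.1, 2.17 and 2.67 against 1.46, 2.27, 2.06, 1.84 and 2.04, with control replicate 5 the highest. The 5 class II genes differed by −0.49 to −0.31, and limma called 0 of them. In these FIPs the 6 erythroid genes had a median difference of −0.21 (308 to 559 CPM against 451 to 522), the 8 mesothelial markers of −0.16 (218 to 245 CPM against 181 to 265) and the 14 endothelial markers of 0.32 (882 to 1094 CPM against 808 to 988), with 0 called in each list. Their part in the members' values was not tested. The 3 members above 0 were Aif1 (0.21), Mertk (0.13) and Cx3cr1 (0.03).

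A difference of the genotype effect between the 2 cell types was not called for any member. In the interaction test limma called 0 of 40 members and 0% of all genes tested, with 1 member and 13.7% of all genes at an unadjusted p under 0.05. That member was Aif1, a gene of few reads. It held 0 to 0.88 log2 CPM in control FIPs, 0 to 0.84 in FIPs labelled transgenic, 1.04 to 2.32 in control APCs and 0 to 1.18 in APCs labelled transgenic. Its genotype difference was −0.87 in APCs and 0.21 in FIPs (interaction 1.08, SE 0.37, limma adjusted p = 0.241). The members' median interaction was 0.26 log2 units, and it lay above 0 for 37 of 40. Next in order of p were Ms4a7 (0.64), Ciita (0.52) and Fcgr1 (0.56), none of which passed.

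Averaged over both cell types, 26 members were lower and 0 higher in the libraries labelled transgenic, a share of 65%, beside 2.67% of all genes called lower. All 5 class II genes, all 3 C1q chains and 7 of 8 macrophage identity and lysosome genes were among them, with 5 of 8 leukocyte genes, 3 of 5 Fc receptor genes, 3 of 9 scavenger genes and 0 of 2 chemokine receptors. These calls were not equally firm. In the 20 fits that left out 1 library, that of C1qb was lost in 14 and that of Cd74 in 11, while those of C1qc and H2-Eb1 held in all 20. The median over all 40 members was −0.64. Rgs1 (−1.21), Trem2 (−1.05), Adgre1 (−0.86, limma adjusted p = 0.00798), Ptafr (−0.83), Ctss (−0.81), Fcgr3 (−0.8), Fcgr2b (−0.79) and Nfam1 (−0.76) had the largest differences among the calls. Among class II genes the averaged differences were −0.39 for Cd74 (limma adjusted p = 0.038), −0.52 for H2-Aa, −0.53 for H2-Ab1, −0.45 for H2-Eb1 (limma adjusted p = 0.0168) and −0.61 for Ciita. In FIPs, the members of this group not yet given by library were Rgs1, with 1.95, 3.83, 3.41, 2.54 and 3.16 in controls and 1.69, 2.27, 2.93, 2.03 and 0.91 in the libraries labelled transgenic, and Trem2, with 2.23, 2.63, 2.83, 2.63 and 2.43 against 1.98, 2.23, 2.14, 1.35 and 0.82. Fcgr2b held 3.09, 3.6, 3.17, 3.23 and 3.23 against 2.8, 3.08, 3.18, 2.48 and 2.34, and Nfam1 1.74, 3.43, 2.53, 2.91 and 2.59 against 1.93, 2.3, 2.56, 1.89 and 1.5. All 4 overlapped between genotypes in FIPs. Ptprc, at −0.61, missed the threshold (limma adjusted p = 0.0592).

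Mertk was the 1 member above 0 on average, with 0.12 and a 95% confidence interval of 0.02 to 0.23, and it did not pass (limma adjusted p = 0.158). Of the 26 averaged calls, 14 passed under all 28 alternatives: Adgre1, C1qc, Cd163, Coro1a, Csf1r, Ctss, H2-Eb1, Laptm5, Lyz2, Mrc1, Nfam1, Ptafr, Rgs1 and Trem2. With 1 library left out, 15 to 32 members passed, beside 460 to 1902 of all genes. The count was 15 both without control APC replicate 3 and without FIP replicate 4 labelled transgenic. Because FIP and APC pools of a genotype share mice, the 20 libraries are not independent for this average. With pools of 1 genotype and number as a random effect 21 members passed. That fit used 1 correlation of 0.16 for all genes, and the number as a fixed term joined different mice across genotypes. Neither form fits a member's own correlation between pools, so the counts of 26, 21 and 14 can overstate how firm the calls are. Averaged in the same way, 4 of 6 erythroid genes and 1 of 8 mesothelial markers were lower, and 0 of 14 endothelial markers were called. Their part in the members' differences was not tested.

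The members not yet given by level spanned both better and poorly measured genes. Laptm5 had a mean of 5.37 ± 0.42 log2 CPM (SD, n = 5 in each group here) in control APCs, 4.48 ± 0.43 in APCs labelled transgenic, 4.97 ± 0.46 in control FIPs and 4.43 ± 0.42 in FIPs labelled transgenic. In the same order of groups, Coro1a had 4.09 ± 0.32, 3.3 ± 0.36, 3.52 ± 0.36 and 2.96 ± 0.5, with up to 26 exon bases shared with Bola2 on the other strand. The mannose receptor gene Mrc1 had 5.79 ± 0.39, 4.96 ± 0.39, 5.31 ± 0.37 and 4.86 ± 0.4. All 3 had their highest mean in control APCs. C1qb had 4.86 ± 0.26, 4.19 ± 0.34, 4.42 ± 0.39 and 3.91 ± 0.59, and C1qc had 4.81 ± 0.35, 4.04 ± 0.32, 4.28 ± 0.35 and 3.79 ± 0.47, and the group means of all 3 C1q chains were highest in control APCs. Tyrobp, the adaptor DAP12 that signals for TREM2, had 3.1 ± 0.27, 2.27 ± 0.74, 2.99 ± 0.28 and 2.4 ± 0.54. The Fc receptor chain gene Fcer1g had 3.65 ± 0.17, 3.27 ± 0.27, 3.3 ± 0.27 and 3.22 ± 0.4. Folr2, which shares up to 474 exon bases with Gm10602 on the other strand, had 1.61 ± 0.47, 1.27 ± 0.56, 1.02 ± 0.52 and 0.62 ± 0.57. Msr1, a scavenger receptor that takes up modified lipoproteins, had 1.84 ± 0.39, 1.06 ± 0.63, 1.65 ± 0.5 and 0.89 ± 0.75, at few reads.

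**Figure D5:**
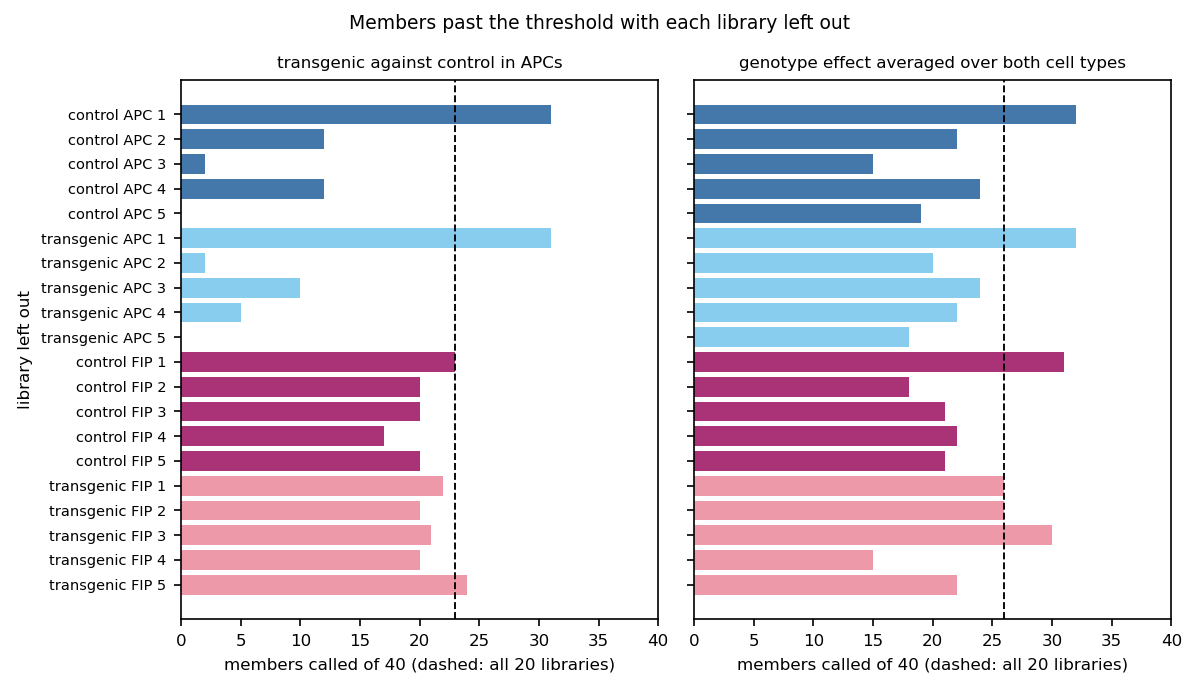
Number of the 40 members called by limma when 1 library is left out, for the genotype comparison in APCs and for the average over both cell types; dashed lines mark the counts with all 20 libraries, 23 and 26. The APC count ranges from 0 to 31 and the averaged count from 15 to 32.

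FIPs were also compared with APCs within each genotype. In control mice all 40 members lay below 0 in FIPs, with a median of −0.44 against −0.06 over all genes. Limma called 13 lower, a share of 32.5% beside 27.9% of all genes called lower, so the count lies near the background. The groups did not overlap for 3 of them, Mertk, Aif1 and Clec10a, beside 16.7% of all genes. In mice labelled transgenic 2 members were lower, beside 19% of all genes, both without overlap, beside 12.4% of all genes, and the members' median was −0.13 against −0.01. With centred libraries the calls over all genes moved from 3422 higher and 4866 lower to 4178 and 3740 in control mice, and from 3962 and 3313 to 3185 and 4091 in mice labelled transgenic. The control APC libraries enter both this comparison in control mice and the genotype comparison in APCs.

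Mertk, a receptor kinase that lets cells engulf dying cells after binding GAS6 or protein S, was the member that separated the 2 populations. It held 4.95, 4.79, 4.72, 5.09 and 4.85 in control FIPs and 6.34, 6.14, 6.13, 6.21 and 6.04 in control APCs, and 4.87, 4.88, 5.14, 5.07 and 5.08 against 6.38, 6.23, 6.26, 6.39 and 6.19 in the libraries labelled transgenic. Every APC library lay above every FIP library, with differences of −1.29 (SE 0.07, limma adjusted p = 7.96e-12) and −1.28 (limma adjusted p = 7.91e-12). In the genotype comparisons it differed by 0.12 in APCs and 0.13 in FIPs, neither called. Cd68 was the other member lower in FIPs labelled transgenic than in the corresponding APCs, with 3.81 to 4.4 log2 CPM in FIPs and 4.67 to 4.82 in APCs (−0.57, limma adjusted p = 0.00201). In control mice its difference was −0.32 and did not pass. Without FIP replicate 3 labelled transgenic 4 members passed in place of 2. Markers of other cell types were also called in these FIPs, beside 19% of all genes called lower. Lower were 3 of 6 erythroid genes (median −0.52), 2 of 8 mesothelial markers (median −0.51) and 1 of 14 endothelial markers (median 0.001). Higher were 1 mesothelial and 2 endothelial markers. Their part in the members' differences was not tested.

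Among the other members lower in control FIPs, Aif1 held 0, 0.39, 0, 0.42 and 0.88 against 1.16, 1.04, 1.75, 1.28 and 2.32 in APCs, with no overlap and at few reads (−1.17, limma adjusted p = 0.000992). The values of Clec10a, a lectin of alternatively activated macrophages, were 2.93, 3.56, 3.6, 3.41 and 3.6 against 3.81, 4.2, 4.41, 3.93 and 4.57, also without overlap (−0.76, limma adjusted p = 0.0143). Cd163 held 3.49, 4.56, 4.1, 4.14 and 4.17 in FIPs, a difference of −0.82 from control APCs, with 1 FIP library level with the lowest APC library. These 3 genes and Mertk passed under all 29 alternatives. Timd4 (0.1, 0.66, 0.41, 0.87 and 0.14 against 0.78, 1.29, 1.17, 1.61 and 1.77), a gene of long-lived resident macrophages, differed by −0.89, and Lyve1 (2.59, 3.61, 3.08, 2.84 and 2.97 against 3.3, 4.07, 4.04, 3.67 and 3.91) by −0.78. Ccr2 (1.98, 3.29, 2.97, 2.98 and 2.87 against 2.64, 3.66, 3.98, 3.5 and 4.18) differed by −0.77, and Nfam1 by −0.77. Ciita (−0.65), Ptafr (−0.59), Ms4a7 (−0.57), Coro1a (−0.57) and C1qc (−0.52) were lower by less. The class II chain genes and Cd74 did not pass, with differences of −0.33 to −0.22.

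The count of 13 moved with single libraries, to 23 without control APC replicate 1, 8 without control APC replicate 2 or 3, 7 without replicate 5 and 6 without control FIP replicate 1. Over all genes the calls ranged from 7599 to 8413 with 1 library left out. In control FIPs, markers of other cell types were lower than in control APCs too, beside 27.9% of all genes called lower. Lower were all 6 erythroid genes (median −1.27), 7 of 8 mesothelial markers (median −1) and 12 of 14 endothelial markers (median −0.61), with 1 endothelial marker higher. Their part in the members' differences was not tested.

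Other macrophage and monocyte genes were taken from a list of 45, of which 42 were tested and 2, Vsig4 and Clec4n, were listed at 0 in all libraries. In APCs labelled transgenic 15 of the 42 were lower and 0 higher (median −0.68), beside 5.91% of all genes called lower. With only the APC groups in the fit, 0 genes in all were called. Among the 15 were the nucleic acid sensors Tlr8 (−1.20, limma adjusted p = 0.00972) and Tlr7 (−1.07). The cytokine receptor chain Csf2rb (−0.63) and Cd5l (−0.98), a secreted scavenger protein of macrophages, were also among them. In FIPs limma called 0, with 16 at an unadjusted p under 0.05 (median −0.46), beside 10.6% of all genes. Tlr8 differed there by −0.92 (limma adjusted p = 0.0826). Averaged over both cell types 20 were lower, beside 2.67% of all genes called lower. The 45 genes summed to 490 to 623 CPM in APCs labelled transgenic and 618 to 893 CPM in control APCs.

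Genes that load and process peptides for class II were examined beside the chain genes. Of 10 tested, limma called 0 between genotypes in APCs, in FIPs and on average. Over all genes 5.91% were called lower in APCs, 0.373% either way in FIPs and 2.67% lower on average. In APCs 5 had an unadjusted p under 0.05, among them H2-DMb2 (−0.77) and H2-DMa (−0.58), chains of the peptide exchanger H2-M, and H2-Ob (−0.74), a chain of its inhibitor. In FIPs that number was 0, and on average 3. H2-Oa and H2-Eb2 were listed at 0 in all libraries. Among the 9 factors that bind class II promoters or feed into Ciita, Nfya, a subunit of the Y box factor, was higher in APCs labelled transgenic (0.33, limma adjusted p = 0.013), and the other 8 were not called. On average Nfya was higher (0.20). The X box factors Rfx5, Rfxank and Rfxap were not called between genotypes.

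Ligands of the member receptors can be made by stromal cells. The growth factor gene Csf1 had group means of 8.82 to 8.95 log2 CPM, Il34 of 5.29 to 5.69 and Ccl2, the main ligand of CCR2, of 7.12 to 7.55. Of 10 ligands tested, limma called 0 between genotypes in APCs (5 at an unadjusted p under 0.05) and 0 in FIPs (3 at an unadjusted p under 0.05). Over all genes 5.91% were called lower in APCs and 0.373% either way in FIPs, where 10.6% had an unadjusted p under 0.05. That last share was not worked out in APCs, so nothing is read from the count of 5. In APCs Ccl8 differed by −0.53, Il34 by 0.40, Apoe by −0.14 and Csf1 by 0.07. On average Gas6 was higher (0.14, limma adjusted p = 0.0201) and Apoe, a lipid carrier bound by TREM2, was lower (−0.14, limma adjusted p = 0.0354). Between populations of control mice Ccl2 was higher in FIPs (0.43, limma adjusted p = 4.15e-06), as was Mif (0.56), while Gas6 was lower (−0.30), as was Apoe (−0.33).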

How the data were processed

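Polyadenylated RNA of 20 libraries was analysed, 5 in each of 4 groups taken from the labels. Per the submitters' processing notes, the authors used Trim Galore 0.4.1, HISAT2 2.0.1, featureCounts 1.4.6 and DESeq2 1.6.3 with build GRCm38/mm10. Neither the gene annotation nor the strandedness of the counting is named in the sources used here. The deposited values are log2 CPM with 2 decimals, as the file's name and values show, and a CPM of 1 or less is listed as 0. This floor shrinks differences of low genes. Because 74.8% to 78.8% of values in a library were whole reads within 0.0051 log2 units, no count test was run. Estimated depth was 6.61 to 8.5 megareads, and libraries of 1 group correlated at 0.98 to 0.995 across genes.

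Genes above 0 in at least 5 libraries were fitted with limma 3.58.1 in R 4.3.3 (1 mean per group, variance trend, 16 residual degrees of freedom), and p-values were adjusted over 17435 genes by Benjamini-Hochberg with a threshold of 0.05. The fit was tested on simulated data. Differences are libraries labelled transgenic minus controls, or FIPs minus APCs, and no sample was dropped or imputed. Values in every library are given for 12 reference members and for up to 8 passing members with the largest differences per comparison, or the 4 with the smallest p where none passed. From each related list up to 4 genes with the smallest p are named. The values of 1 gene of these lists are not reported here. Members, lists and tests were chosen with earlier results of these data known. Exon lengths and gene positions come from GENCODE M21 and promoters from RefSeq (GRCm38.p6). Alternatives were a 1 CPM pseudocount, a looser filter (above 0 in at least 1 library) and a stricter one (above 1 log2 CPM in at least 5 libraries). Others were median centring, quantile normalization, robust variances, only the groups compared, replicate blocks and each library left out.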

Additional observations from a re-analysis of the deposited data

Results flagged for a closer look

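In 12 of the 158 groups of 5 libraries examined (1 member in 1 group, with values that were not all equal), the highest or lowest library stood far from the other 4, by Dixon's criterion at the 95% level. Chance alone flags about 1 in 20 such groups. Most of these values came from genes with few reads. Cx3cr1 was listed at 0 in the other libraries of the group and stood at 0.36 log2 CPM in replicate 2 of the APCs labelled transgenic, at 0.13 in replicate 4 of the control FIPs and at 0.30 in replicate 3 of the FIPs labelled transgenic. Marco reached 1.32 in control APC replicate 5, where the next library held 0.32, and 0.78 in control FIP replicate 5, where the next held 0.07. Fcgr1 stood at 0.96 in replicate 1 of the APCs labelled transgenic, above 0.26 in the next, and at 0 in control FIP replicate 1, below 0.66 in the next.

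Better measured genes were also among them. Fcgr3 stood at 2.41 in control APC replicate 1, where the next lowest library held 3.40, and Clec10a at 2.93 in control FIP replicate 1, where the next held 3.41. These are the libraries that were the lowest of their groups for most members. Fcgr2b stood at 3.60 in control FIP replicate 2, above 3.23, and Ciita at 2.67 in control FIP replicate 5, above 2.24. Cd68 stood at 4.82 in replicate 4 of the APCs labelled transgenic, above 4.70, in a group that spanned 4.67 to 4.82.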

How the results depend on the processing

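Counts of calls moved with the settings, and no difference of a named member reversed. For named members, 535 of 616 values under the alternatives other than left-out libraries kept their side of the threshold and 81 no longer passed, and the members' medians kept their direction in each case. The members lower in control FIPs than control APCs fell from 13 to 8 with a looser filter (above 0 in at least 1 library) and to 8 with quantile normalization. Those lower in APCs labelled transgenic fell from 23 to 9 with the looser filter, 15 with quantile normalization and 0 with only the APC groups in the fit. Over all genes the same comparison gave 1396 calls, and 812, 2199 (median centred) and 0 (only the groups compared). The genotype comparison in FIPs gave 65 calls over all genes and 36 with only its groups. The interaction gave 0, and 3 with 1 CPM added and 1 with quantile normalization. Fcgr1 had no value under the stricter filter.

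With 1 library left out, calls over all genes ranged from 7599 to 8413 for FIPs against APCs in control mice, 6682 to 7461 in mice labelled transgenic, 9 to 125 for genotype in FIPs, 181 to 2849 in APCs, 0 to 331 for the interaction and 460 to 1902 averaged. Members called ranged, in the same order, over 6 to 23, 2 to 4, 0 to 0, 0 to 31, 0 to 0 and 15 to 32. The 4 occurred without FIP replicate 3 labelled transgenic.

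The labels do not say that a replicate number marks shared mice. Same-numbered APC and FIP libraries deviated together with r of 0.04 to 0.27 across genes in controls (2 of 5 over 0.1) and 0.06 to 0.33 in the libraries labelled transgenic (3 of 5), so pairing was not established. As a hint from the data, 3 of 5 control and 4 of 5 transgenic-labelled APC libraries correlated best with the FIP library of their own number, against 1 of 5 in each of the other pairs of groups. Summed over 39 members, replicate 1 was lowest in control APCs (701 CPM) and control FIPs (546 CPM). Replicate 5 was lowest in APCs (442 CPM) and FIPs (371 CPM) labelled transgenic. The highest sums fell on different numbers in APCs and FIPs, 3 and 2 in controls and 1 and 3 in those labelled transgenic. The members' dependence between same-numbered pools can thus differ from that across all genes, and it was not tested. With the number as a fixed replicate block, 101 genes were called for genotype in FIPs and 4 members for FIPs against APCs in mice labelled transgenic. With pools of 1 genotype and number as a random-effect replicate block, the interaction gave 36 genes and the average 439 instead of 896. The cause of these changes was not tested. Under the block 17 members were called for FIPs against APCs in control mice in either form, 22 (fixed) and 25 (random) for genotype in APCs, and 29 and 21 on average.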

Other observations

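The 13 T and NK cell markers of the list summed to 8.43 to 20.5 CPM in control APCs and 4.90 to 14 CPM in APCs labelled transgenic, with Klrb1c and Ncr1 of NK cells listed at 0 throughout. The 10 mast cell and neutrophil markers summed to 8.88 to 16.7 CPM in control APCs and 1.23 to 8.55 CPM in control FIPs, and all 5 that were tested were lower in control FIPs (median −0.95). The neutrophil genes S100a8, S100a9, Retnlg and Cxcr2 were listed at 0 in every library. B cell markers summed to 58.2 to 98.4 CPM in control APCs and 23.8 to 53.0 CPM in control FIPs, where 4 of 8 were lower and 1 higher (median −0.64). Of 9 dendritic cell markers 4 were lower in control FIPs (median −0.49) and 0 higher, with 8 below 0. For these comparisons of control FIPs with control APCs, 27.9% of all genes were called lower. Xcr1, a marker of cross-presenting dendritic cells, was listed at 0 in all libraries.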
